A study of Xenopus laevis with 45 samples.

Results

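The keratin genes of Xenopus laevis embryos were followed over 3 tadpole stages and 5 conditions. Members were the rows of the gene count tables whose symbol starts with krt and a digit, which gave 40 of 45038 rows. They belong to 23 symbols once the endings .L and .S are removed. These endings mark the long and short copies (homeologs) that this allotetraploid frog keeps of many genes.

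Keratins are the intermediate filament proteins of epithelia. A filament is built from pairs of a type I and a type II keratin, so the genes are used in combinations that differ between epithelia. Keratin 8 (type II) and keratin 18 (type I) form the pair of simple epithelia such as gut and liver, and in the Xenopus embryo keratin 18 is also known from the notochord. Stratified epithelia such as skin use other pairs, and the embryonic epidermis of Xenopus carries larval keratins that give way to others as the tadpole matures.

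The rows were put in classes by their symbol. The krt8 and krt18 class held 6 rows (krt8.L, krt8.S, krt18.L, krt18.S, krt8.2.L and krt8.2.S), krt19, another simple epithelial keratin, held 2, the epidermal class held 16 and the remaining 16 rows were kept as other keratins. The krt5.1-like rows are among these other keratins, since their symbol is not on the epidermal list. The class follows the symbol in the files, and RefSeq names of the Xenopus laevis v10.1 assembly differ for some rows. RefSeq knows krt5.7.L as krt7.L, a symbol of simple epithelia, so sums of the epidermal class are given with and without krt5.7. It names krt14.L and krt2l.L as ouro2.L and ouro1.L, the Ouro larval tail antigens of Xenopus, and krt16.L and krt16.S as copies of krt12.2. There krt12.S is krt12.5.S and krt15.L is krt15.2.L, while krt12.L found no match. In that assembly krt18.1 lies beside krt8.1 on the L and on the S chromosome, and krt18.3.L lies beside krt8.2.L. Of the 40 rows 20 matched a RefSeq entry, 9 by symbol and 11 by an older symbol.

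RNA came from whole embryos raised in 0.1x MBS, a saline buffer. Erythroferrone (ERFE) is a hormone of red cell precursors, and its knockdown was attempted with antisense morpholinos given at the 8-cell stage to the 4 vegetal blastomeres, the cells that make much of the gut and liver. The groups were 10 ng ERFE MO1, 20 ng ERFE MO2, 10 ng or 20 ng of a standard control morpholino (cMO), and uninjected embryos, each at stages 35/36, 37/38 and 41 with 3 libraries. The embryos are not described as carrying any transgene or mutation, and the labels give neither the number of embryos per library nor whether replicates came from separate clutches, so the p-values reflect the spread among the samples at hand, some of which may be technical. In RNA of whole embryos, fewer cells of a type and less RNA per cell cannot be told apart.

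The 45 libraries held 19342567 to 41922031 counts. Levels are given in counts per 1e6 counts (CPM), and the limit that a count of 0 allows, 3 counts, came to 0.0709 to 0.155 CPM per library. Markers of epidermis, mucus cells, gut, liver, notochord, neurons, skeletal muscle and blood had counts in each library. Some were low, with alb.L of liver at 0.0294 CPM and hba1.L of blood at 0.0935 CPM in their lowest libraries. The listed markers myh4 (muscle), hba3 and hbe1 (blood) had no row. The targeted transcript, fam132b.L, had 27 to 346 counts per library and was called in no ERFE comparison by the edgeR quasi-likelihood test. With replicate number as a block it was called lower for MO1 at stage 41 (adjusted p = 0.0213) and for MO2 at stages 37/38 (0.0175) and 41 (0.00202). The counts of ERFE MO2 stage 35/36 replicate 1 and ERFE MO1 stage 37/38 replicate 2 were closer than those of any other of the 990 pairs, with a chi-square of 1.22 per gene (31834 genes). The pair that followed had 3.78, and the most alike pair of a single group 10.2. The 2 libraries carry different labels, and may stem from the same sample, in which case 1 of the labels is wrong. Departures from the group means correlated at 0.0777 between MO2 stage 35/36 replicate 1 and replicate 1 of its control. For MO1 stage 37/38 replicate 2 and replicate 2 of its control the value was 0.527. A shared source and which label would be wrong were not tested. This doubt bears on each value of MO1 at stage 37/38 and MO2 at stage 35/36. The tests without the block are given with and without these libraries where that changes a call, while the fits with the block and the ratios of sums were computed with both libraries only. Ranges over the 15 libraries of a stage also include them, and MO2 stage 35/36 replicate 1 sets some of the limits.

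Of the 40 keratin rows 32 passed the filter on low counts and were tested. The 8 rows that did not pass were krt6.L, krt6.S, krt5.6.S, krt5.1-like.1.L, krt24-like.L, krt24-like.1.L, krt24-like.1.S and krt35.S. Their highest count in any library was 11, and their highest level 0.318 CPM, in krt24-like.1.S. Among the tested rows 18 averaged at least 10 CPM over all libraries, 4 averaged 1 to 10 CPM and 10 averaged less than 1 CPM.

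Keratin rows took 0.44% to 1.87% of the counts of a library. The krt5.7 rows alone made up 41.3% to 73.7% of these keratin counts, and copies of krt12, krt8, krt19, krt16 and krt18 most of the rest. These shares are of counts and are not corrected for transcript length. Over the 15 libraries of stage 35/36 the epidermal class summed to 12127 to 17363 CPM, with a median of 15032 CPM, and over the 15 of stage 41 to 2779 to 7961 CPM, with a median of 5674 CPM. Without krt5.7 it summed to 2372 to 3154 CPM and 985 to 1864 CPM at these stages. The krt8 and krt18 class summed to 1092 to 2007 CPM at stage 35/36 and 874 to 1573 CPM at stage 41. The epidermal ranges of the 2 stages were separate in both sums, while those of krt8 and krt18 overlapped.

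In uninjected embryos 16 of the 32 tested keratins changed between stages 35/36 and 41, 6 higher and 10 lower, in the edgeR test with Benjamini-Hochberg adjustment over 31817 genes. This share is not far from the background, since 43.1% of all genes tested were called in the same comparison, 21.4% higher and 21.7% lower. Within the epidermal class 2 rose, 7 fell and 4 were not called, and the median log2 fold change was -1.06 against 0.01 over all genes tested. Both krt5.7 rows are among those that fell, and krt14.L is among those that rose. RefSeq names krt5.7.L and krt14.L otherwise, and the counts and median without these rows are not given. Within the krt8 and krt18 class 1 rose, 2 fell and 3 were not called, with a median of -0.09. Of the other keratins 3 rose and 1 fell, and neither krt19 row was called. The other keratins krt5.1-like.2.L and krt5.1-like.2.S averaged 55.9 and 115 CPM over all libraries and were not called. The S row was at 108, 130 and 122 CPM at stage 35/36 and at 111, 113 and 118 CPM at stage 41. The epidermal counts and median leave these rows out. With replicate number as a block across stages 6 rose and 11 fell, with 52.5% of all genes called.

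**Figure D1:**
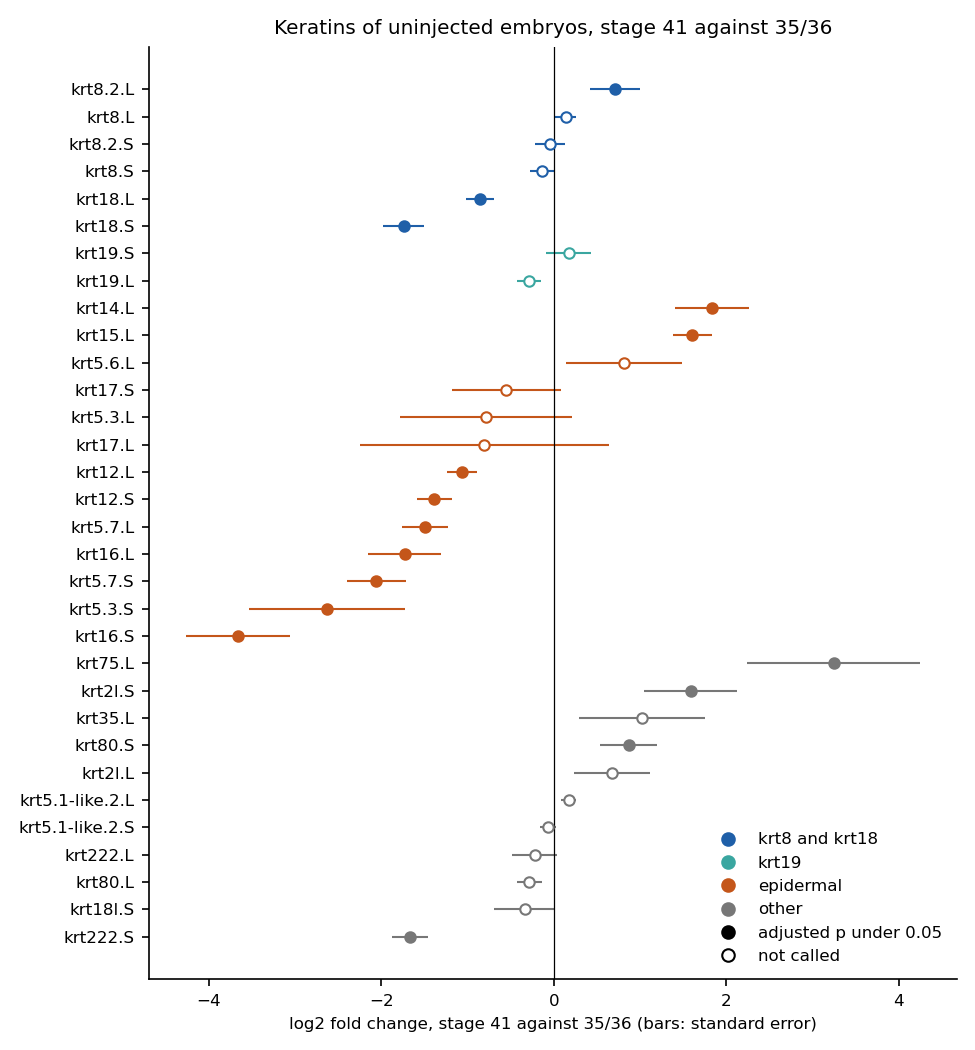
Log2 fold change with its standard error for each of the 32 tested keratins between stages 35/36 and 41 of uninjected embryos, with 3 libraries per stage, coloured by class. Filled points are called at an adjusted p under 0.05. The points of krt16.S, krt5.7.S and krt18.S lie far to the left, while krt8.L and krt8.S lie near 0.

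The krt5.7 rows, a type II keratin by symbol, held the most counts. In uninjected embryos krt5.7.S was at 6722, 8117 and 7033 CPM at stage 35/36 (in the order of the replicate numbers, here and throughout), 6884, 6096 and 4197 CPM at stage 37/38, then 2489, 1838 and 926 CPM at stage 41. The last stage lay below both earlier ones, with replicate 3 the lowest. Its log2 fold change from stage 35/36 to 41 was -2.06 ± 0.34 (SE; edgeR adjusted p = 1.3e-05), a 4.16-fold lower level. The L row was at 3441, 4192 and 4194 CPM, next 3596, 3364 and 2247 CPM, and finally 1812, 1521 and 868 CPM. It fell by 1.49 on the log2 scale (SE 0.27, adjusted p = 4.5e-05). Replicate 3 of stage 41 had the lowest krt5.7.S of the 3 libraries in each of the 5 conditions, at 926 to 1865 CPM, so the spread within a group at this stage follows the replicate number.

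The krt12 rows, type I keratins by symbol, were lower at stage 41 as well. krt12.S was at 1278, 1437 and 1394 CPM at stage 35/36, 1017, 1089 and 883 CPM at stage 37/38, then 624, 532 and 413 CPM at stage 41. The 3 stages did not overlap, and the change from stage 35/36 to 41 was -1.39 ± 0.20 (adjusted p = 2.3e-06). krt12.L went from 708, 691 and 768 CPM to 396, 324 and 317 CPM and fell by 1.06 on the log2 scale (SE 0.18, adjusted p = 1.5e-05).

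The krt16 rows, type I keratins by symbol, held the steepest change among keratins over 1 CPM. krt16.S was at 419, 394 and 445 CPM at stage 35/36, 301, 240 and 159 CPM at stage 37/38, then 55.2, 24.6 and 19.8 CPM at stage 41. Each stage lay below the one before, and the level at stage 41 was 12.6-fold lower than at stage 35/36 (log2 fold change -3.66 ± 0.60, adjusted p = 1.3e-05). krt16.L was at 253, 224 and 212 CPM and then, at stage 41, at 94.5, 59.2 and 53.9 CPM. Its fall was smaller, -1.73 ± 0.42 (adjusted p = 0.00114). The low-level row krt5.3.S, a type II keratin by symbol, was at 0.113, 0.197 and 0.315 CPM and then at 0.0374, 0.0265 and 0.0312 CPM, which is under the floor of 3 counts. It was called lower (adjusted p = 0.0183), but not without uninjected stage 41 replicate 2 (0.0668), stage 41 replicate 3 (0.0511) or stage 35/36 replicate 3 (0.0923), with a lane term (0.051) or with L and S counts added (-1.58, adjusted p = 0.0858).

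Keratins 15 and 14 went the other way. krt15.L, a type I keratin that marks basal cells of mammalian epidermis, was at 46.0, 57.6 and 84.3 CPM at stage 35/36, 76.1, 114 and 106 CPM at stage 37/38, then 200, 196 and 176 CPM at stage 41. It rose by 1.61 ± 0.22 on the log2 scale (adjusted p = 1.2e-06), a 3.04-fold higher level. Stage 41 lay above both earlier stages, which overlapped with each other. krt14.L, the row RefSeq names ouro2.L, was at 0.945, 1.08 and 0.629 CPM and later at 2.77, 2.73 and 3.99 CPM, a change of 1.84 ± 0.43 (adjusted p = 8.0e-04).

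**Figure D2:**
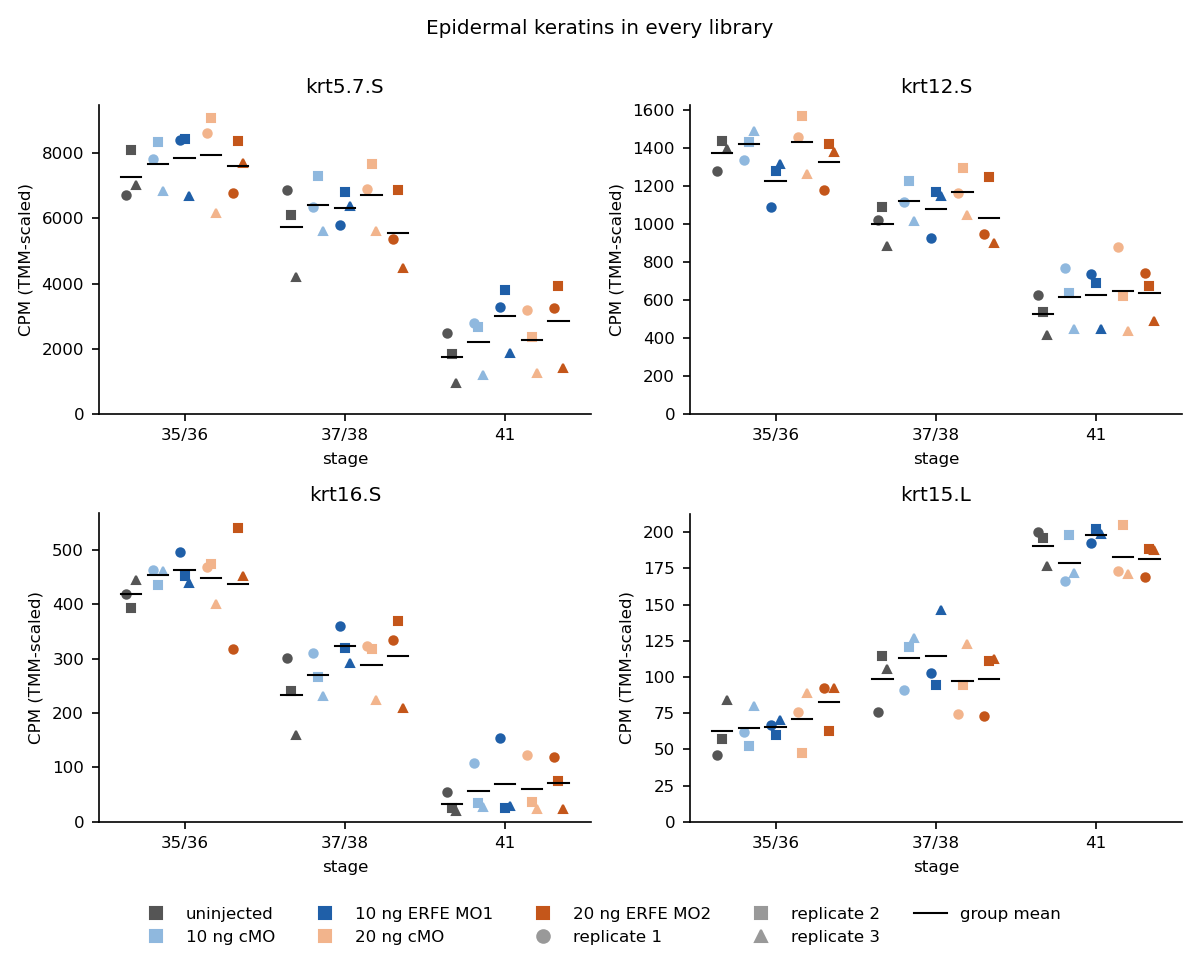
CPM of krt5.7.S, krt12.S, krt16.S and krt15.L in each of the 45 libraries, by stage and condition, with the mean of each group as a line and the replicate number as the symbol. The first 3 are lowest and krt15.L highest at stage 41 in the 5 conditions alike.

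The krt8 and krt18 partners diverged over the same period. krt8.L was at 379, 355 and 458 CPM in uninjected embryos at stage 35/36, 323, 302 and 342 CPM at stage 37/38, then 381, 469 and 463 CPM at stage 41. The first and last stages overlapped, and the difference of 0.14 ± 0.12 was not called (adjusted p = 0.38). Between stages 37/38 and 41 the row rose by 0.44 ± 0.12 (adjusted p = 0.00745). krt8.S was at 333, 359 and 445 CPM, next 334, 281 and 283 CPM, and finally 303, 380 and 355 CPM, and was called in none of the 3 stage comparisons.

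krt18.L, in contrast, was at 225, 201 and 243 CPM, next 158, 139 and 144 CPM, and finally 124, 121 and 125 CPM. Its change from stage 35/36 to 41 was -0.85 ± 0.16 (adjusted p = 8.7e-05). krt18.S went from 144, 133 and 184 CPM through 104, 61.7 and 79.4 CPM to 40.0, 50.0 and 47.8 CPM, a 3.34-fold lower level (-1.74 ± 0.24, adjusted p = 7.8e-07). Neither krt18 row overlapped between the first and last stage. The counts of both krt8 rows together were 1.93, 2.14 and 2.11 times those of both krt18 rows at stage 35/36 and 4.16, 4.95 and 4.75 times at stage 41. The ratio was 1.84 to 2.36 over the 15 libraries of stage 35/36 and 2.82 to 5.64 over those of stage 41.

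The class holds another gene, krt8.2, at lower levels. krt8.2.L was at 5.41, 7.82 and 8.23 CPM at stage 35/36 and at 7.44, 14.2 and 13.3 CPM at stage 41. These ranges overlapped, and the row was called higher by a narrow margin (0.71 ± 0.29, adjusted p = 0.0468). The call was lost without any of 5 of the 6 libraries compared (adjusted p 0.0519 to 0.20), the exception being stage 41 replicate 1, and without the filter on low counts (0.0648). With L and S counts of krt8.2 added the estimate was 0.12 (adjusted p = 0.58). krt8.2.S, at 40.6, 36.0 and 31.5 CPM and later 28.9, 45.1 and 31.1 CPM, was not called (-0.04 ± 0.17).

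Other keratins that changed were lower in level. krt222.S was at 19.6, 17.8 and 16.4 CPM and fell to 7.29, 5.42 and 4.24 CPM, a change of -1.67 ± 0.20 (adjusted p = 1.6e-07). krt2l.S was at 0.340, 0.394 and 0.286 CPM and later at 0.486, 1.38 and 1.18 CPM, without overlap (1.58 ± 0.53, adjusted p = 0.016). The call was lost without stage 41 replicate 2 (0.0863) or stage 35/36 replicate 3 (0.0616), and with a lane term (0.0557). krt80.S was at 1.89, 1.87 and 1.77 CPM and later at 1.79, 4.60 and 3.65 CPM. These ranges overlapped, and the row was called higher (0.87 ± 0.33, adjusted p = 0.0307). The direction turned when the L and S counts of krt80 were added (log2 fold change -0.11, adjusted p = 0.53), and leaving out any of 5 of the 6 libraries, all but stage 41 replicate 1, ended the call (0.062 to 0.23), as did a lane term (0.10). krt75.L, named after its values were seen, was at 0.113, 0 and 0.0572 CPM and later at 0.224, 0.847 and 0.561 CPM. It was called higher (log2 fold change 3.25, adjusted p = 0.00926), but not without stage 41 replicate 2 (0.052).

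More keratins were called over the later interval than over the earlier, and so were more of all genes tested (30.1% against 0.0723%). From stage 37/38 to 41, 5 keratins rose and 8 fell, with 30.1% of all genes called (14.8% higher and 15.3% lower). Those that fell were krt5.7.L, krt5.7.S, krt12.L, krt12.S, krt16.L, krt16.S, krt18.S and krt222.S, and those that rose were krt8.L, krt15.L, krt14.L, krt80.S and krt75.L. The block across stages gave 8 higher and 9 lower, with 41.4% of all genes called. Among rows at 1 CPM or more the largest change was again that of krt16.S, -2.82 ± 0.58 (adjusted p = 6.0e-04). Some of these calls rested on single libraries of uninjected embryos. Without stage 37/38 replicate 1, krt14.L (0.0511), krt16.L (0.21), krt18.S (0.0723) and krt80.S (0.15) were not called. The same held for krt16.L without stage 37/38 replicate 2 (0.0694), for krt14.L (0.13) and krt80.S (0.059) without stage 37/38 replicate 3, for krt16.L (0.13) and krt80.S (0.19) without stage 41 replicate 2, and for krt14.L (0.12), krt16.L (0.14) and krt80.S (0.0699) without stage 41 replicate 3. With L and S counts added, krt18 was not called in this comparison (-0.44, adjusted p = 0.0597), against -0.83 for krt18.S alone.

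From stage 35/36 to 37/38 no keratin was called by edgeR, with 0.0723% of all genes called. An unadjusted p under 0.05 was found for 7 of 32 keratins and for 2958 of all 31817 genes tested. Among keratins the smallest p-values were those of krt18.S (-0.91 ± 0.23, adjusted p = 0.11) and krt18.L (-0.60 ± 0.16, adjusted p = 0.13), and the 2 stages did not overlap for either row. With replicate number as a block across stages both were called lower (adjusted p = 0.0314 and 0.0173), with 1.21% of all genes called, and DESeq2 called 1 keratin. The share of all genes called by DESeq2 is not given here.

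Genes that work with keratins or mark the tissues that carry them were read in the same comparison of stages 35/36 and 41 in uninjected embryos, in which 43.1% of all genes were called, 21.4% higher and 21.7% lower. Of 25 tested rows for desmosomes and hemidesmosomes, the junctions to which keratin filaments attach, 3 rose and 10 fell, a share called that is near that background. col17a1.L, a hemidesmosome collagen, rose by 1.99 ± 0.20 (adjusted p = 8.2e-09), and dsc3.L, a desmosomal cadherin, fell by 1.57 (SE 0.27, adjusted p = 2.0e-05). Of 30 rows for epidermal transcription factors 7 rose and 9 fell, among them grhl3.L (-1.61 ± 0.22, adjusted p = 1.1e-06), dlx3.S (-1.65 ± 0.16, adjusted p = 5.6e-09) and klf4.S (2.42 ± 0.38, adjusted p = 5.7e-06). Gut epithelium rows went mostly up, with 14 higher and 3 lower of 24. vil1.S, which encodes villin of the gut brush border, rose by 4.27 ± 0.57 (adjusted p = 6.9e-07).

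Notochord rows split evenly, with 5 higher and 5 lower of 14. Of the non-keratin intermediate filaments and lamins 9 rose and 11 fell of 28, of the liver rows 4 rose and 2 fell of 18, and of the cement gland rows 1 rose and 3 fell of 12. Among rows of epidermal mucus and small secretory cells 4 rose and 1 fell of 13, and among ionocyte rows 2 rose and none fell of 10. Against 43.1% of all genes called, these shares were above the background for the notochord and filament rows, near it for the liver, cement gland and secretory cell rows and below it for the ionocyte rows, with no test of the lists. The part of changing tissue composition in the keratin values was not tested.

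With ERFE MO1, some rows of krt8 and krt18 were called higher than with 10 ng cMO. No epidermal keratin was called in the fit without the replicate block. At stage 37/38 the called rows were krt18.L and krt8.S and at stage 41 krt18.L and krt8.L, out of 32 keratins each time. The share of all genes called was 0.6% at stage 37/38 (0.503% called higher) and 1.51% at stage 41 (0.971% called higher). At stage 35/36 no keratin was called, with 0.39% of all genes called, while 4 had an unadjusted p under 0.05, all of them krt8 or krt18 rows. Over all genes 2030 of 31817 had such an unadjusted p.

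At stage 35/36 krt8.S was at 375, 426 and 390 CPM with 10 ng cMO and at 660, 577 and 506 CPM with MO1. The groups did not overlap, and the log2 fold change was 0.55 ± 0.14 (edgeR adjusted p = 0.0764). It was called with the replicate block (0.0146, with 2.5% of all genes called), with a term for the sequencing lane (0.0468) and by DESeq2 (0.0198). krt18.S, at 164, 175 and 154 CPM against 291, 241 and 232 CPM, did not overlap either but was not called (0.63 ± 0.23, adjusted p = 0.44). krt18.L (0.37 ± 0.16, adjusted p = 0.67) and krt8.L (0.27 ± 0.12, adjusted p = 0.71) overlapped with their controls, although both were higher in 3 of 3 replicate numbers.

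At stage 37/38 the 4 rows had no overlap with the control. The share of all genes without overlap was not counted, so such statements describe the values only. krt18.L was at 198, 149 and 145 CPM with 10 ng cMO and at 311, 232 and 241 CPM with MO1, a 1.59-fold higher level (0.67 ± 0.16, adjusted p = 0.0416). krt8.S was at 319, 297 and 273 CPM against 528, 401 and 423 CPM, 1.52-fold higher (0.60 ± 0.14, adjusted p = 0.0289). krt8.L, at 377, 346 and 356 CPM against 528, 484 and 466 CPM, reached 0.45 ± 0.12 (adjusted p = 0.0914). krt18.S, at 114, 72.2 and 74.8 CPM against 188, 141 and 136 CPM, had the largest estimate, 0.84 ± 0.23 (adjusted p = 0.0969). With the replicate block all of these 4 rows were called higher (adjusted p 0.00223 to 0.0134), with 3.64% of all genes called.

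At stage 41 krt18.L was at 134, 114 and 109 CPM with 10 ng cMO and at 290, 188 and 175 CPM with MO1. This was 1.82-fold higher, without overlap (0.87 ± 0.16, adjusted p = 0.00306). krt8.L was at 359, 453 and 482 CPM against 655, 595 and 602 CPM, 1.43-fold higher (0.52 ± 0.12, adjusted p = 0.0228). krt18.S, at 47.3, 44.1 and 39.8 CPM against 110, 57.2 and 58.8 CPM, was not called (0.78 ± 0.23, adjusted p = 0.0822) but was with the block (0.0117). krt8.S, at 295, 365 and 359 CPM against 475, 382 and 386 CPM, differed by 0.29 ± 0.14 and was not called in either fit (adjusted p = 0.41, and 0.12 with the block).

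**Figure D3:**
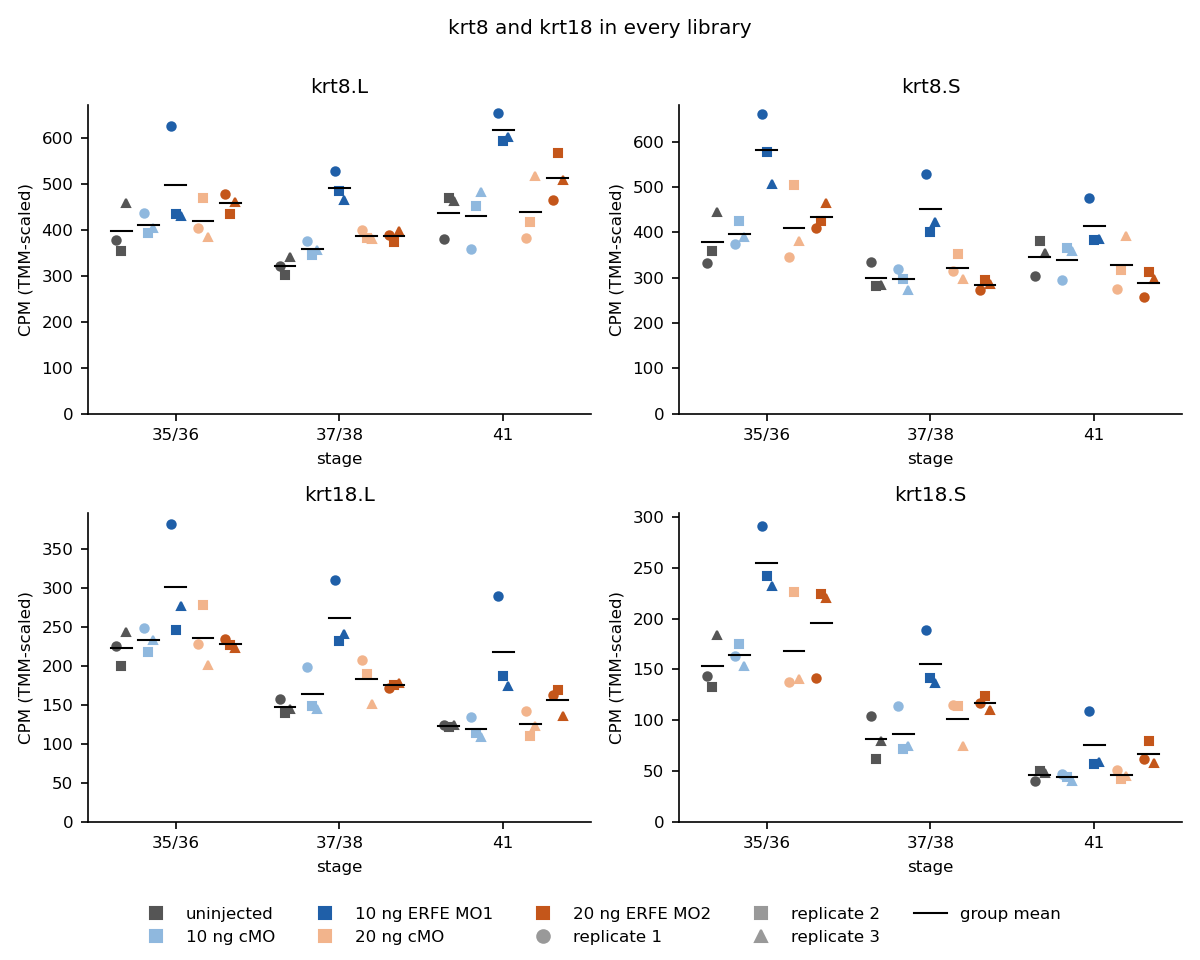
CPM of krt8.L, krt8.S, krt18.L and krt18.S in each of the 45 libraries, by stage and condition, with the mean of each group as a line and the replicate number as the symbol. The mean of the ERFE MO1 libraries is the highest of the 5 at each stage, with replicate 1 above the other 2, while both krt18 rows drop with stage in the 5 conditions.

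Replicate 1 had the highest value of the 3 MO1 libraries for these 4 rows at each stage, for krt18.L 382 CPM against 246 and 277 at stage 35/36, 311 against 232 and 241 at stage 37/38, and 290 against 188 and 175 at stage 41. With 10 ng cMO replicate 1 was also highest for krt18.L at each stage, and for all 4 rows at stage 37/38. At stage 35/36 it was highest for krt8.L but not for krt8.S or krt18.S. At stage 41 it was highest for krt18.S but lowest for both krt8 rows. Without MO1 stage 41 replicate 1 the estimates at that stage were 0.56 for krt18.L (adjusted p = 0.0659) and 0.44 for krt8.L (0.0765), so none remained called. krt18.L was also lost without 10 ng cMO replicate 3 (0.0607), and krt8.L without cMO replicate 1 (0.14) or MO1 replicate 2 (0.0519). At stage 37/38 neither row was called without MO1 replicate 1 (krt18.L 0.40 and krt8.S 0.27), cMO replicate 2 (0.25 and 0.13) or cMO replicate 3 (0.33 and 0.20). krt8.S was lost without cMO replicate 1 (0.0622), and krt18.L without MO1 replicate 2 (0.052), the library that resembles an MO2 library, or MO1 replicate 3 (0.0732). The direction was the same in all of these fits, none of which had the replicate block.

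Since L and S copies can share reads, their counts were also added. Summed krt18 was higher with MO1 by 0.73 ± 0.18 at stage 37/38 (adjusted p = 0.0483) and by 0.83 at stage 41 (0.0105). Summed krt8 was higher by 0.52 ± 0.12 at stage 37/38 (0.0243) and by 0.40 at stage 41, where it was not called (0.0818). The rows of krt8.2 were not called higher at any stage. krt8.2.L was at 7.28, 15.7 and 12.0 CPM with 10 ng cMO and at 5.25, 12.9 and 6.76 CPM with MO1 at stage 41, lower in 3 of 3 replicate numbers (-0.49 ± 0.29, adjusted p = 0.53). With the block it was called lower (-0.51, adjusted p = 0.0111). krt8.2.S was not called at any stage.

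Without the block, epidermal keratins with MO1 showed no call in 13 tested rows at any of the 3 stages, and their median log2 fold changes were 0.02, -0.03 and 0.23. Positive estimates were found for 7, 5 and 10 of the 13, and for 15372, 15676 and 15748 of all 31817 genes tested. None of the 13 had an unadjusted p under 0.05. krt5.7.S at stage 41 was at 2782, 2652 and 1181 CPM with 10 ng cMO and at 3293, 3806 and 1865 CPM with MO1. It was higher in 3 of 3 replicate numbers, though the groups overlapped (0.44 ± 0.33, adjusted p = 0.65), and it was called with the block (0.48 ± 0.13, adjusted p = 0.011, with 13.4% of all genes called). Without the block its SE was larger than those of the krt8 and krt18 rows, so a change of like size was less readily called. krt12.S, at 765, 634 and 446 CPM against 736, 685 and 445 CPM, differed by 0.02 ± 0.20. krt16.S, at 107, 35.4 and 26.5 CPM against 154, 25.2 and 28.7 CPM, differed by 0.30 ± 0.55, and replicate 1 stood well above the others in both groups.

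The summed CPM of the epidermal class over that of krt8 and krt18 reads both classes at once. At stage 35/36 it was 11.5, 12.6 and 10.96 with 10 ng cMO and 7.73, 10.3 and 8.57 with MO1. It was 11.8, 14.9 and 12.2 against 7.03, 9.63 and 9.50 at stage 37/38, and at stage 41 it was 7.30, 5.71 and 3.18 against 4.48, 6.20 and 3.54. The MO1 values lay below the control values at the first 2 stages and overlapped with them at stage 41. Without krt5.7 the ratio was 2.22, 2.25 and 2.42 against 1.26, 1.78 and 1.79 at stage 35/36, and 2.27, 2.71 and 2.34 against 1.39, 1.82 and 1.86 at stage 37/38. At stage 41 it was 1.90, 1.32 and 0.963 against 1.10, 1.08 and 0.812, lower with MO1 in 3 of 3 replicate numbers with overlapping groups, whereas the ratio with krt5.7 was higher in 2 of 3. Uninjected embryos had ratios, with krt5.7, of 11.4, 13.8 and 10.3 at stage 35/36, and of 13.2, 14.2 and 9.27 at stage 37/38. At stage 41 they had 6.42, 4.16 and 2.69. These ratios overlapped with those of MO1 at stages 37/38 and 41. Without krt5.7 the uninjected ratios at stage 37/38 were 2.30, 2.70 and 1.99, above those with MO1.

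Other epithelial genes in the same comparison gave few calls. No row was called for desmosomes and hemidesmosomes, epidermal transcription factors, gut epithelium, cement gland or notochord at any stage with MO1, out of 25, 30, 24, 12 and 14 tested. At stage 41 ca2.S, a carbonic anhydrase listed for ionocytes, was higher (0.47 ± 0.12, adjusted p = 0.0421), spdef.S, a transcription factor of secretory cells, was lower (-0.99 ± 0.26, adjusted p = 0.0439), and nefl.L, a neurofilament, was higher (0.54 ± 0.14, adjusted p = 0.0453). With the block at stage 41, which called 13.4% of all genes, the counts were 1 higher and 5 lower for desmosomes and hemidesmosomes, 4 and 2 for epidermal transcription factors, 2 and 7 for gut epithelium, 6 and 0 for ionocytes, and 4 and 2 for the non-keratin filaments. Counts of the other lists are not given for this fit. It also called the liver rows fgb.S (adjusted p = 2.9e-05) and fga.S (0.00139), and spdef.S (0.000227). At stages 35/36 and 37/38 the block, which called 2.5% and 3.64% of all genes, gave 3 and 4 gut epithelium rows lower of 24 and 2 and 6 liver rows lower of 18, with none higher in either list. Without the block 1, 1 and 2 of the 18 liver rows were called lower at the 3 stages, and none higher. fgb.S, which encodes a fibrinogen chain, was lower at stages 35/36, 37/38 and 41 (-1.54 ± 0.34, -1.69 ± 0.34 and -1.44 ± 0.34, adjusted p = 0.0265, 0.00857 and 0.021).

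The summed level of the 19 liver rows was 1655 to 2383 CPM with 10 ng cMO and 755 to 1515 CPM with MO1 at stage 35/36, 2611 to 3005 CPM against 1328 to 2415 CPM at stage 37/38, and 2925 to 3741 CPM against 2157 to 3410 CPM at stage 41. The 14 notochord rows summed to 1542 to 2073 CPM against 1080 to 1796 CPM at stage 37/38 and to 2428 to 3780 CPM against 2492 to 3894 CPM at stage 41. In uninjected embryos at stage 37/38 this list averaged 1847 CPM, with the collagen row col2a1.L at 738 CPM and foxa4.L at 2.01 CPM. How far col2a1.L stands for notochord was not tested. The 24 gut rows summed to 893 to 979 CPM against 819 to 947 CPM at stage 37/38 and to 1043 to 1392 CPM against 1104 to 1249 CPM at stage 41. On the gut list epcam.S averaged 189 CPM and vil1.S 4.84 CPM in uninjected embryos at stage 37/38, so the sum gives vil1.S little weight. Whether the rows with high levels are particular to gut was not tested. The liver ranges did not overlap at stages 35/36 and 37/38 and did at stage 41, while the notochord and gut ranges overlapped at both stages given. The part of tissue composition in the krt8 and krt18 values was not tested.

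**Figure D4:**
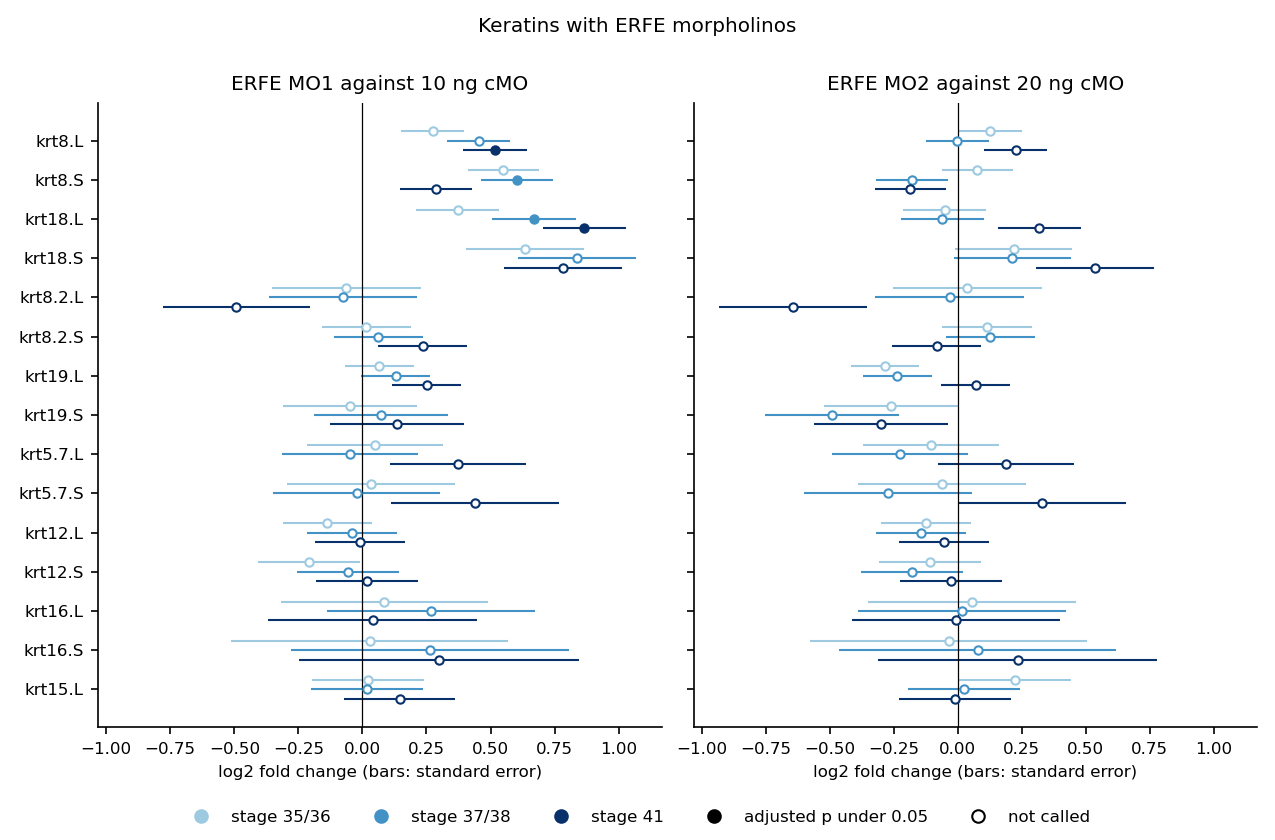
Log2 fold change with its standard error of 15 keratin rows for ERFE MO1 against 10 ng cMO (left) and ERFE MO2 against 20 ng cMO (right) at the 3 stages, with 3 libraries per group. Filled points are called at an adjusted p under 0.05. krt8.L, krt8.S, krt18.L and krt18.S lie to the right of 0 on the MO1 side and nearer to 0 on the MO2 side, while krt8.2.L lies to the left of 0 at stage 41 on both.

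With ERFE MO2 no keratin was called against 20 ng cMO at any stage in the fit without the replicate block. That fit called 0.0189%, 0.0974% and 0.412% of all genes at stages 35/36, 37/38 and 41. At an unadjusted p under 0.05 there were 3, 2 and 3 of 32 keratins, and 1701, 1656 and 2764 of all 31817 genes tested. The block called 1 keratin at each stage, with 0.563%, 1.62% and 5.8% of all genes called. The partners krt8 and krt18 gave no common direction at stage 41. krt18.S was at 51.1, 42.1 and 44.7 CPM with 20 ng cMO and at 62.1, 79.7 and 58.2 CPM with MO2, without overlap (0.54 ± 0.23, adjusted p = 0.46). krt18.L, at 143, 110 and 124 CPM against 164, 169 and 136 CPM, overlapped (0.32 ± 0.16, adjusted p = 0.60). krt8.S was at 275, 317 and 392 CPM against 257, 312 and 297 CPM, lower in 3 of 3 replicate numbers (-0.18 ± 0.14, adjusted p = 0.87). krt8.L, at 382, 418 and 517 CPM against 465, 567 and 509 CPM, was higher in 2 of 3 (0.23 ± 0.12, adjusted p = 0.65).

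In the middle stage, 37/38, krt8.L was at 401, 383 and 381 CPM with 20 ng cMO and at 390, 374 and 398 CPM with MO2, a difference of 0.00 ± 0.12. krt8.S, at 315, 351 and 297 CPM against 272, 294 and 285 CPM, and krt18.L, at 208, 190 and 151 CPM against 172, 176 and 179 CPM, differed by -0.18 ± 0.14 and -0.06 ± 0.16. krt18.S, at 115, 114 and 74.3 CPM against 117, 124 and 110 CPM, was higher in 3 of 3 replicate numbers with overlapping groups (0.21 ± 0.23). None of the 4 rows was called. At stage 35/36 the 4 rows differed by -0.05 to 0.22. Without MO2 stage 35/36 replicate 1 the differences were -0.07 for krt18.L, 0.40 for krt18.S, 0.09 for krt8.L and 0.11 for krt8.S, again with no call. The 19 liver rows were lower in sum with MO2 as well. At stage 35/36 they summed to 1491 to 2910 CPM with 20 ng cMO and 742 to 1620 CPM with MO2, which overlapped. The sums were 2182 to 3403 against 1122 to 1955 CPM at stage 37/38, without overlap. At stage 41 they were 3038 to 3663 against 1668 to 2215 CPM, again without overlap. The part of tissue composition was not tested here either.

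krt8.2.L was the row of this class that fell with MO2 once replicate number was a block. At stage 41 it was at 8.05, 12.3 and 13.2 CPM with 20 ng cMO and at 5.32, 9.40 and 6.77 CPM with MO2, lower in 3 of 3 replicate numbers with overlapping groups (-0.64 ± 0.29, adjusted p = 0.49). With the block it was called (-0.66 ± 0.14, adjusted p = 0.00273, with 5.8% of all genes called). The MO1 values of this row, given above, were on the same side at that stage.

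The epidermal row krt5.3.S was low with MO2, at levels under 2 CPM throughout. At stage 37/38 it was at 1.90, 0.298 and 0.535 CPM with 20 ng cMO and at 0.124, 0.0779 and 0.154 CPM with MO2, without overlap (-2.90 ± 0.65, adjusted p = 0.0611). With the block it was called (-2.71 ± 0.48, adjusted p = 0.00224, with 1.62% of all genes called), as it was at stage 35/36 (-2.01, adjusted p = 0.0384, with 0.563% called), where the pairing of the numbers did not hold for replicate 1 of MO2. Uninjected embryos had 0.228, 0.0724 and 0.203 CPM at stage 37/38, so the MO2 level lay near theirs and the 20 ng cMO level above it. Against uninjected embryos the 20 ng cMO difference was 2.41 ± 0.64 at this stage, with an adjusted p of 1.0.

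A direct comparison of the MO1 and MO2 responses called no keratin at any of the 3 stages, with 0%, 0.0409% and 0% of all genes called. The difference of krt8.S at stage 37/38 was 0.78 ± 0.20, higher for MO1 (adjusted p = 0.28), and that of krt18.L was 0.73 ± 0.23 (adjusted p = 0.69). With the replicate block krt8.S was called (0.0469, with 0.443% of all genes called) and krt18.L was not (0.0782). The 2 morpholinos were given at different doses, so the sequence of the oligo and its amount cannot be told apart here. The change of a morpholino response from stage 35/36 to 41 was called for no keratin, with MO1 (0.00629% of all genes called) or with MO2 (0%), and none of the alternatives called any. For krt18.L with MO1 this change was 0.49 ± 0.23, with an unadjusted p of 0.0381 and an adjusted p of 1.0.

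The control morpholino itself was followed by no keratin call in the 6 comparisons with uninjected embryos. The share of all genes called was 0.00629% at each stage for 10 ng, and 0.0157%, 0.0126% and 0.0126% for 20 ng. At an unadjusted p under 0.05 there were 403, 453 and 428 of all 31817 genes tested for 10 ng and 651, 575 and 588 for 20 ng. Keratins with such a p were 0, 0 and 1 of 32 for 10 ng and 2, 2 and 1 for 20 ng. krt8.L was the krt8 or krt18 row among these, at 323, 302 and 342 CPM in uninjected embryos and at 401, 383 and 381 CPM with 20 ng cMO at stage 37/38. These groups did not overlap, and the difference was 0.27 ± 0.12 (adjusted p = 1.0).

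The share of counts on the S row changed with stage for some symbols. In uninjected embryos the S row held 38.9%, 39.9% and 43.1% of the krt18 counts at stage 35/36, 39.7%, 30.7% and 35.5% at stage 37/38, and 24.4%, 29.2% and 27.7% at stage 41. Over the 15 libraries of a stage, its share was 37.6% to 49.7% at stage 35/36 and 23.4% to 32.0% at stage 41, which did not overlap. For krt16 the S share was 59.8% to 70.3% at stage 35/36 and 26.9% to 49.8% at stage 41. The S row thus went from holding the larger part of krt16 counts to holding the smaller part.

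krt5.7 and krt12 moved less. The S share of krt5.7 was 62.6% to 67.2% at stage 35/36 and 51.4% to 62.5% at stage 41, and that of krt12 was 64.1% to 67.6% and 56.6% to 62.2%. For krt8 the S share was 46.0% to 57.0% and then 35.5% to 45.1%, without overlap. The ranges of krt19, krt8.2 and krt222 overlapped between these stages. For krt19 the S share was 10.0% to 18.4% and then 13.1% to 24.2%, with a higher median at stage 41 (15.4% and 20.0%). It was 75.3% to 88.2% and then 70.0% to 88.0% for krt8.2, and 82.8% to 89.5% and then 64.2% to 85.9% for krt222. Reads of near-identical copies may have been assigned to either row, so differences between copies are uncertain.

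**Figure D5:**
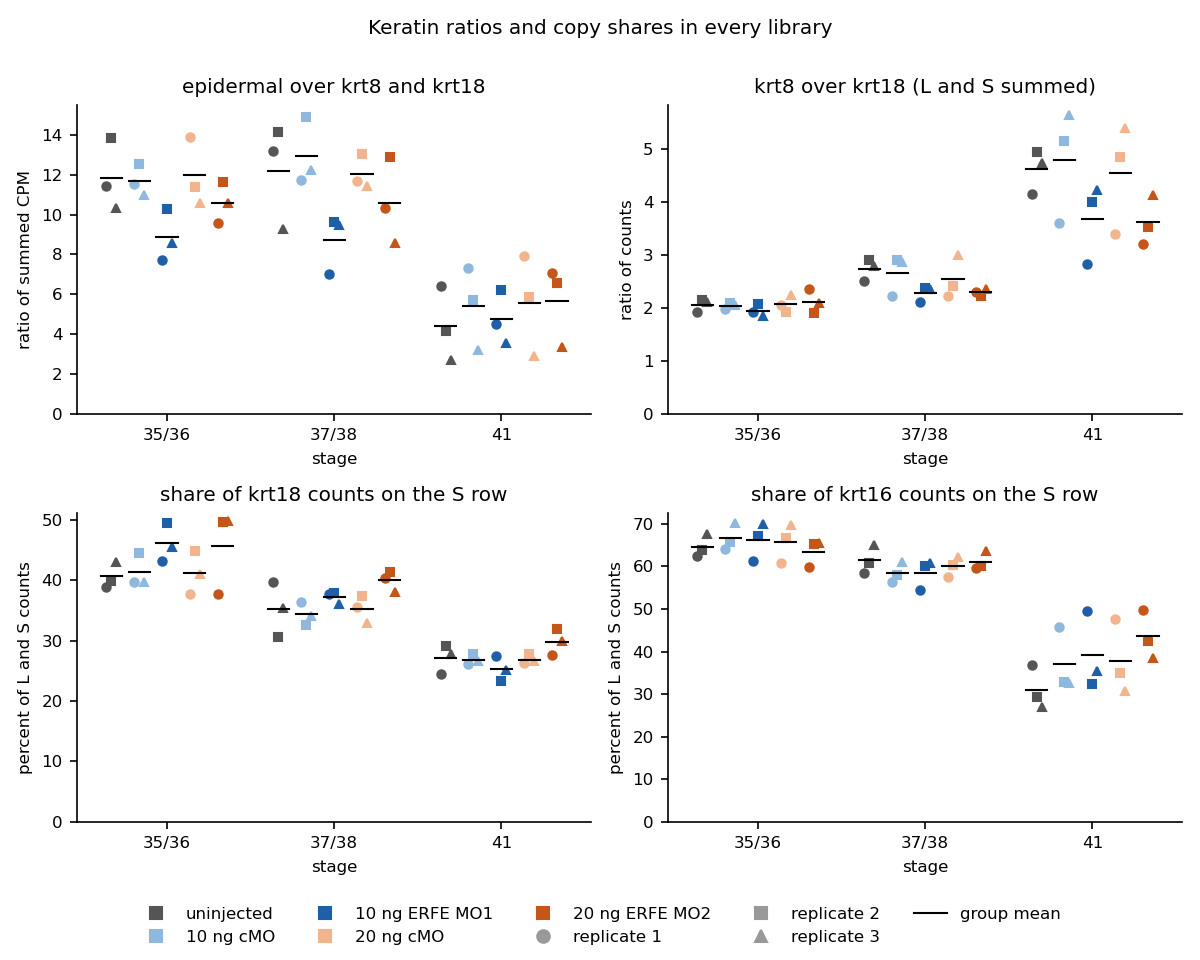
Ratios in each of the 45 libraries by stage and condition, with the mean of each group as a line: summed CPM of epidermal keratins (krt5.7 included) over that of krt8 and krt18, counts of krt8 over krt18, and the percent of krt18 and of krt16 counts on the S row. At stage 41 the ratio of krt8 to krt18 counts is higher and the others are lower than at stage 35/36, and MO1 lies below 10 ng cMO in the ratio of the class sums at stages 35/36 and 37/38.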

How the data were processed

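RNA of whole embryos was sequenced in 45 libraries of 15 groups, with 3 libraries per group, from Trizol extracts and TruSeq RNA v2 libraries, per the labels' protocols. The kit keeps no strand, and overlapping genes can share reads. The deposited values are raw read counts per gene. Per the submitters' processing notes the tools were bcl2fastq 2.17.1.14, FastQC 0.11.5, STAR 2.5.2a, featureCounts 1.5.0-p1 and DESeq2 1.8.2; which genome build, annotation and rule for multiply mapped reads were used is not given in the sources at hand. The libraries held 19342567 to 41922031 counts, and the floor of 3 counts covers counting error only.

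Tests were computed in R 4.3.3. With edgeR 4.0.16, filterByExpr by group at a count minimum of 10 kept 31817 genes. Counts were scaled by TMM (factors 0.936 to 1.07) and fitted with glmQLFit, with all 45 libraries and 1 term per group, leaving 30 residual degrees of freedom, and tested with glmQLFTest, two-sided. Benjamini-Hochberg adjustment covered all genes tested in a comparison, and a row was called below 0.05. Such p-values come from edgeR unless another tool is named, and SE is the standard error of the log2 fold change. CPM uses the TMM-scaled library size. Overlap of groups is described for named rows only. Its share over all genes was not counted, and with 3 libraries per group it is no test. The code was tested on simulated data.

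Rows named are those of krt8 and krt18, the 6 epidermal rows with the highest mean CPM, the called rows (in stage comparisons the 6 per direction with the largest fold change among rows at 1 CPM or more in the higher group), and up to 3 genes per context list and comparison. Members and lists were chosen with earlier results of these data known.

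Replicate numbers are in the labels, which do not say what they share. Libraries of the same number departed from their group means together: the correlation passed 0.1 for 44 of 45 pairs (median 0.481, lowest of the 44 0.309), pairs across uninjected stages included, the exception being MO2 against 20 ng cMO at stage 35/36 for replicate 1. The numbers were therefore taken to pair libraries, and a fit that blocks on the number within each stage, with 24 residual degrees of freedom, is quoted where it changes a call. The main calls and the fits without a library ignore this pairing. The 45 pairs reuse the same groups, and departures within a group cancel, so their correlations are not independent. The common biological coefficient of variation was 0.2 in the main fit and 0.108 with the block. A row not called in the main fit may thus be called in the paired one. Sequencing lanes follow replicate number in most libraries. They also move with stage, since uninjected replicates 1, 2 and 3 were on lanes 1, 2 and 4 at stage 35/36 and on lanes 2, 3 and 5 at stage 41. Lane and stage are thus partly confounded in the stage comparisons. Alternatives were RLE scaling, no filter, DESeq2 1.42.0, a lane term, the block, leaving out each library and, chosen after seeing the data, L and S counts added and a block across stages.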

Additional observations from a re-analysis of the deposited data

How the results depend on the processing

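Counts of called keratins kept within 1.5 times of the reported count under RLE scaling in all 20 comparisons. For MO1 against 10 ng cMO the replicate block gave 1, 4 and 5 calls at stages 35/36, 37/38 and 41 (against 0, 2 and 2), while it called 2.5%, 3.64% and 13.4% of all genes, so that 5 of 32 at stage 41 is near the background. The lane term and DESeq2 each gave 1 and 4 at the first 2 stages, and no filter gave 1 at stage 37/38. For MO2 the block gave 1 call at each stage, as did the lane term and DESeq2 at stage 37/38 (against 0). For uninjected embryos from stage 35/36 to 37/38 the block across stages gave 2, the lane term 2 and DESeq2 1 (against 0). The block within stage gave 7, which is no valid count, since its terms take up the spread between libraries that a stage comparison is tested against. For MO1 minus MO2 at stage 37/38 the block gave 1 (against 0). The paired fits moved no other count by more than 1.5 times. Leaving out each library in turn gave 0 to 2 calls for MO1 at stage 37/38 and at stage 41, 0 to 1 for MO2 at stage 37/38 (1 without 20 ng cMO replicate 2), 9 to 15 for stage 41 against 37/38 and 12 to 16 for stage 41 against 35/36. No library left out gave a call for MO1 at stage 35/36. Leaving out MO2 stage 35/36 replicate 1 changed no count. Among the alternatives, the share of all genes called is given for the blocks only. Keratin counts under the other settings thus cannot be set against a background here. Adding L and S counts turned krt80 from higher to lower, at -0.076 for stage 41 against 37/38 and -0.11 for stage 41 against 35/36, neither called; the L row holds most of the krt80 counts.

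Rows under 1 CPM, 10 of the 32 tested, rest on few counts, and 8 rows could not be tested at this depth. The cause of the changes between settings was not tested.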
